A study of Mus musculus with 8 samples.

Results

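The endoplasmic reticulum (ER) chaperone and unfolded protein response genes are a set of 32 genes, grouped here as 7 sensors and transcription factors, 16 chaperones and folding enzymes, and 9 genes of degradation and translocation. All 32 were found by symbol among the 17041 genes of the deposited table, and all 32 passed the filter on low values (mean of 10 or more). The members were chosen by name, as textbook genes of this pathway, but with the community comparison of these data already known from the same 8 libraries. Their differences between the communities are therefore a description and support nothing by themselves. RNA came from the proximal large intestine of ApoE knockout mice, a strain prone to atherosclerosis. Mice were raised germ-free, given a bacterial community by gavage at 8 weeks of age and dissected at 26 weeks. The core group (3 libraries) carried a community that makes no butyrate, and the core plus R. intestinalis group (5 libraries, called the R. intestinalis libraries) carried the same community plus Roseburia intestinalis, a butyrate producer. Both groups carry the knockout, and no group with a functional ApoE gene or without bacteria is among these libraries. The labels give neither the diet nor the sex of the mice. They also do not say how the mice were caged or housed in isolators within a group, so the p-values measure only the spread between these libraries.

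Proteins that are secreted or placed in membranes fold in the ER, where chaperones such as BiP (encoded by Hspa5) hold unfolded chains and protein disulfide isomerases form their disulfide bonds. When unfolded chains pile up, the sensors IRE1, PERK and ATF6 start the unfolded protein response, which raises chaperones, slows translation and sends misfolded chains back to the cytosol for degradation. IRE1 splices the Xbp1 messenger RNA to make an active transcription factor, and PERK favours translation of ATF4, steps that a total level of the transcript does not show. The colon wall holds strongly secreting cells, above all the mucin-making goblet cells and antibody-making plasma cells, which depend on this machinery.

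Many chaperone genes share a promoter element, the ER stress response element (ERSE), which binds ATF6 together with the factor NF-Y. The perfect ERSE was searched as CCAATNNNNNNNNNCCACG on both strands of RefSeq promoter windows (build GRCm38.p6) that run from 250 bases before to 50 bases after each start. Windows were found for 26 of the 32 members, and not for Ern2, Atf6, Manf, Hyou1, Derl1 and Sec61a1. An ERSE was present in 9 of the 26 members (34.6%) and in 39 of all 32851 windows (0.119%). Members were counted by gene and the background by window. Because the members are textbook genes of the response that this element serves, their larger share is a description and carries no test. Of the 14 matched chaperones 7 held it, of the 7 matched degradation genes 2, and of the 5 matched sensors and transcription factors 0. Hsp90b1 was the only gene of the whole table with 2 matches in a window, 1 in each orientation. The 10 matches are shown because they are what these members share in sequence. Each is read along the strand that holds the element, with its CCAAT and CCACG ends in capitals.

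Hspa5 (chr2:34772025-34772043, + strand): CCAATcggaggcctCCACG
Hsp90b1 (chr10:86705638-86705656, - strand): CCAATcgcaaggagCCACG
Hsp90b1 (chr10:86705533-86705551, + strand): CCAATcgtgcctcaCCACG
Calr (chr8:84847075-84847093, + strand): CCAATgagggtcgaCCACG
Canx (chr11:50325800-50325818, - strand): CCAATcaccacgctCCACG
Pdia6 (chr12:17266491-17266509, + strand): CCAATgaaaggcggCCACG
Dnajc3 (chr14:118937827-118937845, + strand): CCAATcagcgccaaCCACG
Creld2 (chr15:88819520-88819538, - strand): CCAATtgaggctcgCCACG
Syvn1 (chr19:6046532-6046550, + strand): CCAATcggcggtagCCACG
Derl3 (chr10:75893242-75893260, - strand): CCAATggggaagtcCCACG

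The related ERSE-II was searched as ATTGGNCCACG and was found in 2 members, Herpud1 and Dnajb11, and in 12 of all windows (0.0365%). ERSE and ERSE-II do not overlap in any member. The XBP1 element searched as TGACGTGG and the ATF4 and CHOP element searched as TGATGNAAT were in 0 of the 26 members and in 0.676% and 0.965% of all windows. The shorter run ACGTGG, which TGACGTGG contains and which can overlap the CCACG end of an ERSE, was in 6 members (23.1%) and in 8.31% of windows. Such a match is a run of letters and not a measured binding site. Full upstream parts (the 250 bases before the start) follow for 5 members that differ in their values below. Hspa5 and Hsp90b1 had an ERSE and were lower with R. intestinalis, Calr had one and was level, Herpud1 had an ERSE-II, and Pdia4 was lower with none of these elements. Capitals mark the ends of an ERSE and the whole of an ERSE-II.

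Hspa5 (chr2:34771840-34772089, + strand): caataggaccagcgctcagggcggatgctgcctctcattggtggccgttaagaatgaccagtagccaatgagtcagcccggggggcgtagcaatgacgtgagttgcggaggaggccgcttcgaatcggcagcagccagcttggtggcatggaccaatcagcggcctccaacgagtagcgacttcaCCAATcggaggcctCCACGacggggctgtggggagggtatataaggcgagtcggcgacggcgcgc
Hsp90b1 (chr10:86705445-86705694, - strand): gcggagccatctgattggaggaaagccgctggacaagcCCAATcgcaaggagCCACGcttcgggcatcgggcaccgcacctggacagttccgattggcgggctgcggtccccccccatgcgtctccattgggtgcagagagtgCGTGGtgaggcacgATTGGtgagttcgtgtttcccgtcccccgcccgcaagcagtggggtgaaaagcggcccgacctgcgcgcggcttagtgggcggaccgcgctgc
Calr (chr8:84846932-84847181, - strand): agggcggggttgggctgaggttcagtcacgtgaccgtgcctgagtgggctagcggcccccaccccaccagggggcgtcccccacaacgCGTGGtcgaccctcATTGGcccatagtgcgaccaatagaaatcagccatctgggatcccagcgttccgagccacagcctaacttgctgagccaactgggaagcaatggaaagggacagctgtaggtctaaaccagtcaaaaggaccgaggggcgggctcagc
Herpud1 (chr8:94386179-94386428, + strand): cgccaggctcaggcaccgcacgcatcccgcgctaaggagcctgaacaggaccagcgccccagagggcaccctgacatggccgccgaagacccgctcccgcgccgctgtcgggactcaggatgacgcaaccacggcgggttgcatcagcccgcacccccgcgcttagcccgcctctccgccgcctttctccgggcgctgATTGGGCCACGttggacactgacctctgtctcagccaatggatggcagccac
Pdia4 (chr6:47813513-47813762, - strand): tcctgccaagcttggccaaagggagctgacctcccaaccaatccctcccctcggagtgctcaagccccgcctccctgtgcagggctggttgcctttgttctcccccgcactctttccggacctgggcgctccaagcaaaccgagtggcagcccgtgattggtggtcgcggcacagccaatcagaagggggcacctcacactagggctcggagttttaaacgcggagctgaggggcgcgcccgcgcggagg

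**Figure D1:**
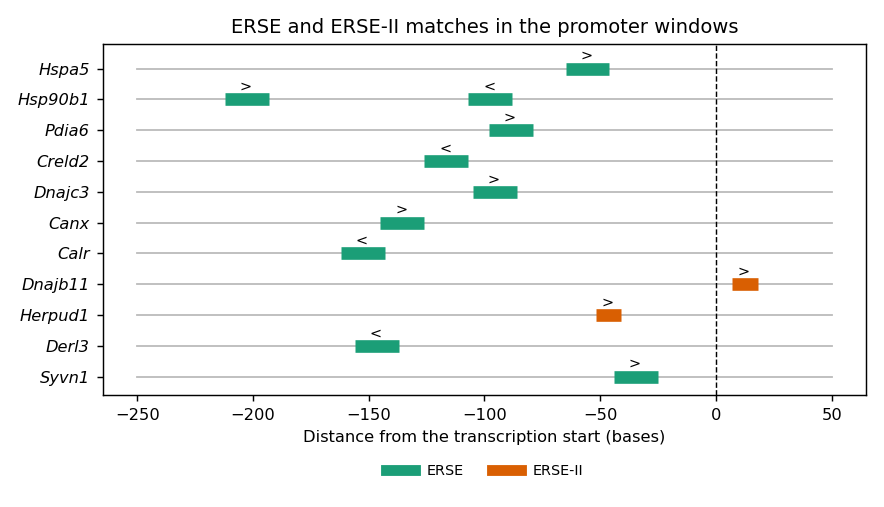
Position of ERSE (green) and ERSE-II (orange) matches in the promoter windows of the 11 members that hold one, in bases from the transcription start (dashed line), with arrows for the orientation relative to the gene. The ERSE matches lie between 212 and 26 bases before the start, and Hsp90b1 carries 2 of them.

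Estimated depth was 4597893 to 6492389 reads per core library and 5388019 to 15352045 per R. intestinalis library. Values below are the authors' normalized values, which are not divided by gene length, so levels are compared between libraries and not between genes. The least read member was Derl3, with an estimated 17 reads in its lowest library, and Hspa5 had at least 2362.

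Among the chaperones, the members with the largest negative differences were Hspa5, the ER member of the Hsp70 family, and Manf, an ER cofactor of BiP that is secreted under stress. Hspa5 stood at 6360, 4553 and 4073 in core replicates 1 to 3, and at 2534, 3562, 3038, 3334 and 3023 in the 5 R. intestinalis libraries, in replicate order as below. Every core library was above every R. intestinalis library, and core replicate 1 was the highest of all. The group means were 4996 ± 1206 (SD, n = 3) and 3098 ± 386.5 (SD, n = 5), a log2 difference of −0.67 (SE 0.17; limma adjusted p = 0.588 over all genes tested). Manf stood at 1300, 1006 and 945.9 in core and at 643, 734, 707, 833 and 711 with R. intestinalis. Its groups did not overlap either, and the same core library was the highest. The log2 difference of Manf was −0.57 (SE 0.14), from means of 1084 ± 189.5 and 726 ± 69.0.

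Hsp90b1 encodes GRP94, the ER form of Hsp90, and Pdia4 a disulfide isomerase of the BiP complex. Hsp90b1 stood at 8134, 6173 and 6904 in core and at 4142, 6102, 5265, 5893 and 4531 with R. intestinalis. The groups were apart by a narrow margin, between core replicate 2 and R. intestinalis replicate 2, and the log2 difference was −0.45 (SE 0.16). Pdia4 stood at 1873, 1570 and 1511 in core and at 986, 1405, 1229, 1444 and 1079 with R. intestinalis. Again all core libraries were above the rest, with a log2 difference of −0.44 (SE 0.16).

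**Figure D2:**
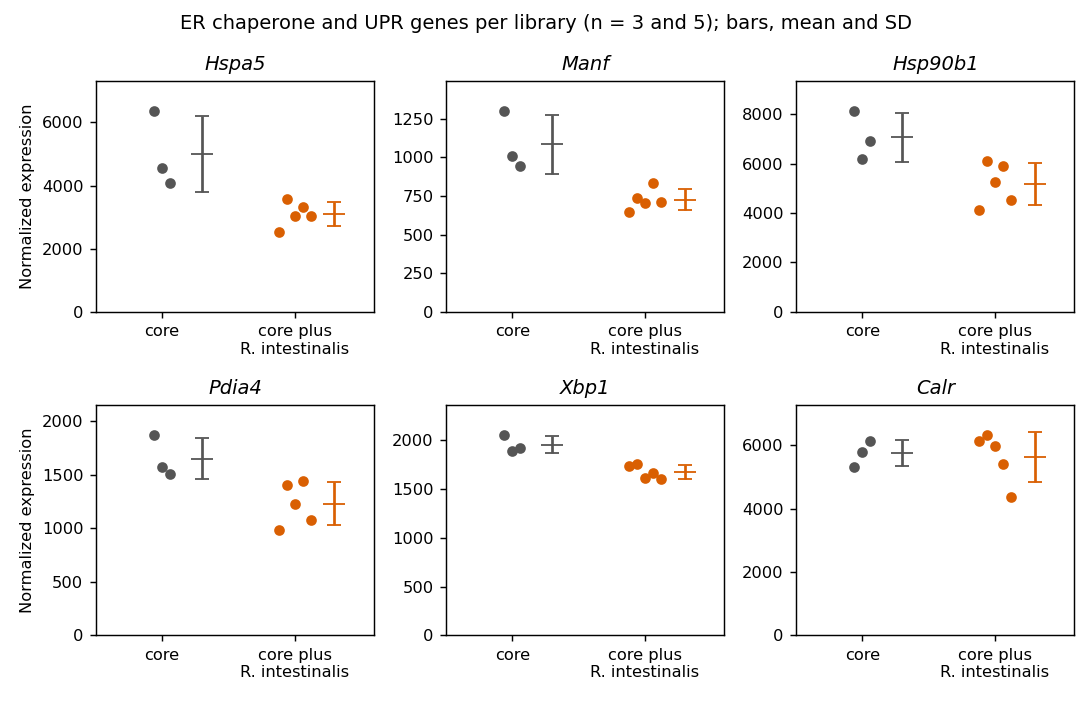
Normalized expression of 5 members whose groups did not overlap and of Calr, with a point for each of the 3 core and the 5 R. intestinalis libraries and bars for mean and SD; each vertical axis starts at 0. Hspa5 averaged 4996 in core and 3098 with R. intestinalis, while Calr averaged 5743 and 5637.

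Pdia6, another disulfide isomerase, and Creld2, a secreted ER stress protein with isomerase activity, had the next largest differences, but their groups overlapped. Pdia6 stood at 2024, 1424 and 2022 in core and at 1091, 1786, 1402, 2109 and 1065 with R. intestinalis. The highest and the lowest Pdia6 value were both in libraries with R. intestinalis, and the log2 difference was −0.32 (SE 0.24). Creld2 stood at 206, 195 and 150 in core and at 138, 146, 141, 164 and 166 with R. intestinalis. Core replicate 3 was the only core library of Creld2 inside the range of the other group, and the log2 difference was −0.27 (SE 0.16).

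The other 10 chaperones lay closer together. Log2 differences were −0.24 for both Dnajc3, a BiP cochaperone that inhibits PERK, and Sdf2l1, a partner of ER Hsp40 proteins. They were −0.21 for the lectin chaperone Canx (calnexin), −0.18 for Pdia3, which folds glycoproteins with it, and −0.18 for Hyou1, a large Hsp70 relative. Differences of −0.15 were found for Dnajb9 and for Ero1l, the oxidase that recharges disulfide isomerases. Calr (calreticulin), the soluble relative of calnexin, averaged 5743 ± 409.6 and 5637 ± 795.8, a log2 difference of −0.04 (SE 0.15). P4hb, the classical disulfide isomerase, had a difference of 0.02 (SE 0.13), and Dnajb11, a BiP cochaperone, one of 0.03 (SE 0.19). None of these 10 had groups apart.

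In all, 14 of the 16 chaperones were below 0, with a median log2 difference of −0.22, beside a median of 0.00 (−0.00347 before rounding) and 6568 below 0 of all 13020 genes tested. With this bulk tissue, fewer cells that express these genes and less of their RNA per cell cannot be told apart. Over all 32 members, 0 passed limma's adjusted threshold (smallest adjusted p = 0.588), and of all genes tested 0% did. An unadjusted p below 0.05 was reached by 4 members, all lower with R. intestinalis (Hspa5, Manf, Hsp90b1 and Pdia4), beside 3.69% of genes tested lower and 4.44% higher. Groups did not overlap in 5 members, those 4 and Xbp1, all lower, beside 3.31% of genes tested lower and 2.53% higher. These counts rest on the contrast with which the members were chosen and carry no test. The 4 became 2 (Hspa5 and Manf) without core replicate 1 (0.975% of genes tested lower), where the log2 difference of Hspa5 was −0.48 and that of Manf −0.43. The 5 became 8 without core replicate 2, through Pdia3, Ero1l and Derl2, and 7 without core replicate 3, beside 11.8% and 7.06% of genes tested that were then apart and lower. With library weights in limma, the same 4 members were among 455 genes (3.49%) that passed the adjusted threshold (adjusted p from 0.0416 to 0.0485). The largest weight, 7.98, went to replicate 3 of the R. intestinalis group, and 0 members passed when that library was left out.

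**Figure D3:**
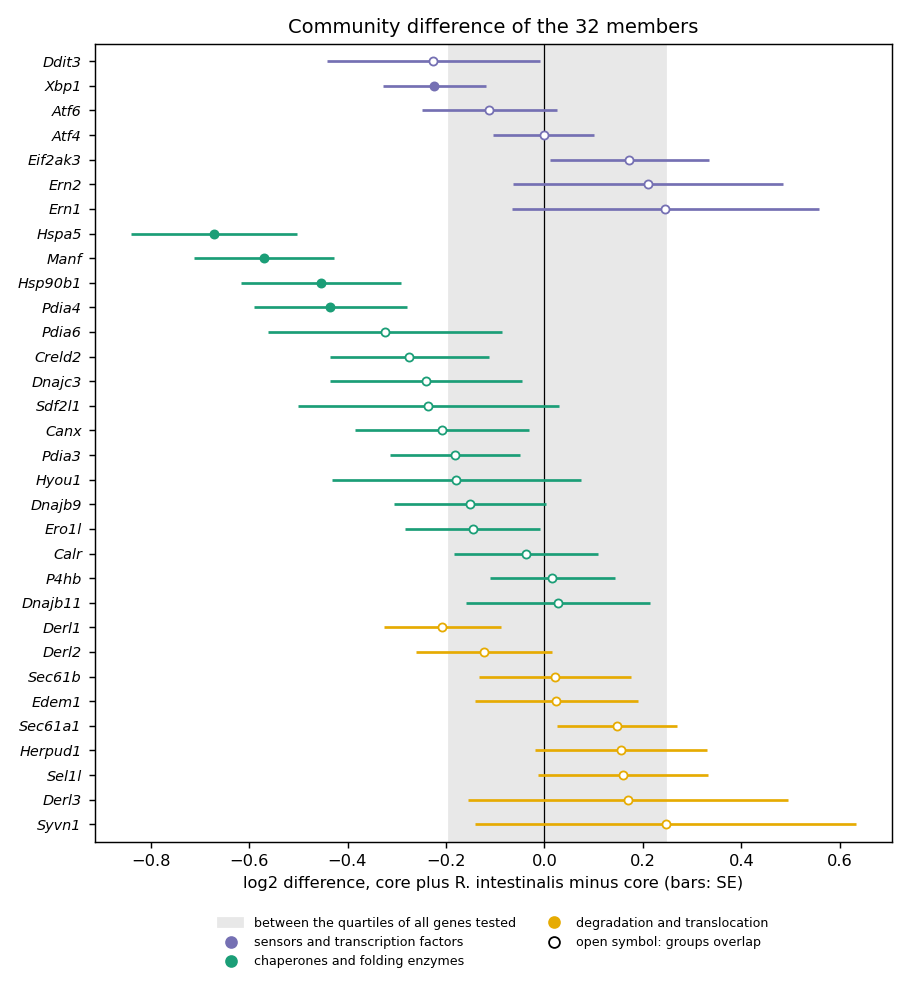
Log2 difference, core plus R. intestinalis minus core, with its SE, of the 32 members by role; filled symbols mark members whose groups did not overlap, and the grey band spans the quartiles of all genes tested (−0.193 to 0.247). Hspa5, Manf, Hsp90b1 and Pdia4 lie farthest to the left, and 7 of the 9 degradation and translocation genes lie right of 0.

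Of the sensors and transcription factors, only Xbp1 had groups apart. Xbp1 stood at 2054, 1887 and 1923 in core and at 1736, 1760, 1608, 1659 and 1605 with R. intestinalis. The libraries of each group were close together, so a difference of −0.22 (SE 0.105) on the log2 scale, with a mean 85.6% of the core mean, left a gap between the groups. The values are totals of the gene and do not separate the spliced form of Xbp1.

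Of the sensor genes, Ern1, Ern2 and Eif2ak3 had positive differences with overlapping groups, and Atf6 a negative one. Ern1, which encodes IRE1 alpha, stood at 57.1, 58.6 and 45.9 in core and at 91.5, 48.5, 88.2, 36.6 and 72.9 with R. intestinalis. Its libraries with R. intestinalis ran from below to above all core libraries, and the log2 difference was 0.25 (SE 0.31). Ern2 encodes IRE1 beta, the form found in gut and airway epithelium. It stood at 328, 327 and 273 in core and at 597, 239, 362, 258 and 433 with R. intestinalis. R. intestinalis replicate 1, the highest for both sensor genes, also had the highest sum of 10 goblet cell markers (413000). Most of that sum was the mucin Muc2 (243421), which with Fcgbp was highest in this library, while Agr2, Zg16 and Clca3 were lower there than in core replicate 1. This library also had the steepest change with GC content over all genes tested (0.56 per 10 percentage points, described below). After the GC correction described below, Ern2 was at 8.668 there and 8.631 in core replicate 1 on the log2 scale. Ern1 was then highest in R. intestinalis replicate 3 (6.462), beside 6.446 in replicate 1. The part of goblet cells and of GC content in these values was not tested. The log2 difference of Ern2 was 0.21 (SE 0.27). Eif2ak3, which encodes PERK, stood at 206, 203 and 157 in core and at 241, 183, 197, 205 and 236 with R. intestinalis, overlapping with a log2 difference of 0.17 (SE 0.16).

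The remaining transcription factors of the response showed no separation. Atf6 had a log2 difference of −0.11 (SE 0.14). Atf4, which runs the PERK branch, ranged only from 1747 to 1952 over the 8 libraries, with a difference of 0.00 (SE 0.10). Ddit3 encodes CHOP, the factor linked to cell death under lasting stress. The core libraries of Ddit3 lay between 165 and 190.5 and the others between 99.7 and 190.9, and its log2 difference was −0.23 (SE 0.22). Over the 7 sensors and transcription factors 4 were below 0, and the median was that of Atf4.

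Genes of ER-associated degradation mostly had small positive differences. Syvn1, the ubiquitin ligase HRD1, stood at 82.5, 116 and 68.9 in core and at 203, 55.0, 96.9, 74.4 and 147 with R. intestinalis. Both extremes of Syvn1 were in libraries with R. intestinalis, and the log2 difference was 0.25 (SE 0.39). Sel1l, the adaptor that holds this ligase in place, stood at 525, 622 and 513 in core and at 805, 560, 712, 510 and 542 with R. intestinalis, a log2 difference of 0.16 (SE 0.17). All 3 core libraries of Sel1l lay within the range of the other group. Herpud1, a membrane scaffold of the same complex, stood at 1562, 1811 and 1336 in core and at 1574, 1609, 2091, 1376 and 2155 with R. intestinalis, a log2 difference of 0.16 (SE 0.18). Only its replicates 3 and 5 with R. intestinalis were above the highest core library.

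The derlins, membrane proteins of the retrotranslocation channel, lay on both sides of 0. Derl1 was below 0 (log2 difference −0.21, SE 0.12), as was Derl2 (−0.12, SE 0.14), whereas Derl3, the least read, was at 0.17 (SE 0.33). Without core replicate 3 the groups of Derl1 were apart, and likewise without R. intestinalis replicate 5. Of all genes tested, 7.06% and 4.09% were then apart and lower. Edem1, a lectin that marks glycoproteins for degradation, was at 0.02 (SE 0.17). Of the channel through which new chains enter the ER, Sec61b was at 0.02 (SE 0.15) and Sec61a1 at 0.15 (SE 0.12). For these 9 genes 7 were above 0 with a median of 0.15 and 0 had groups apart, and the median was 0.02 after a correction for GC content.

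**Figure D4:**
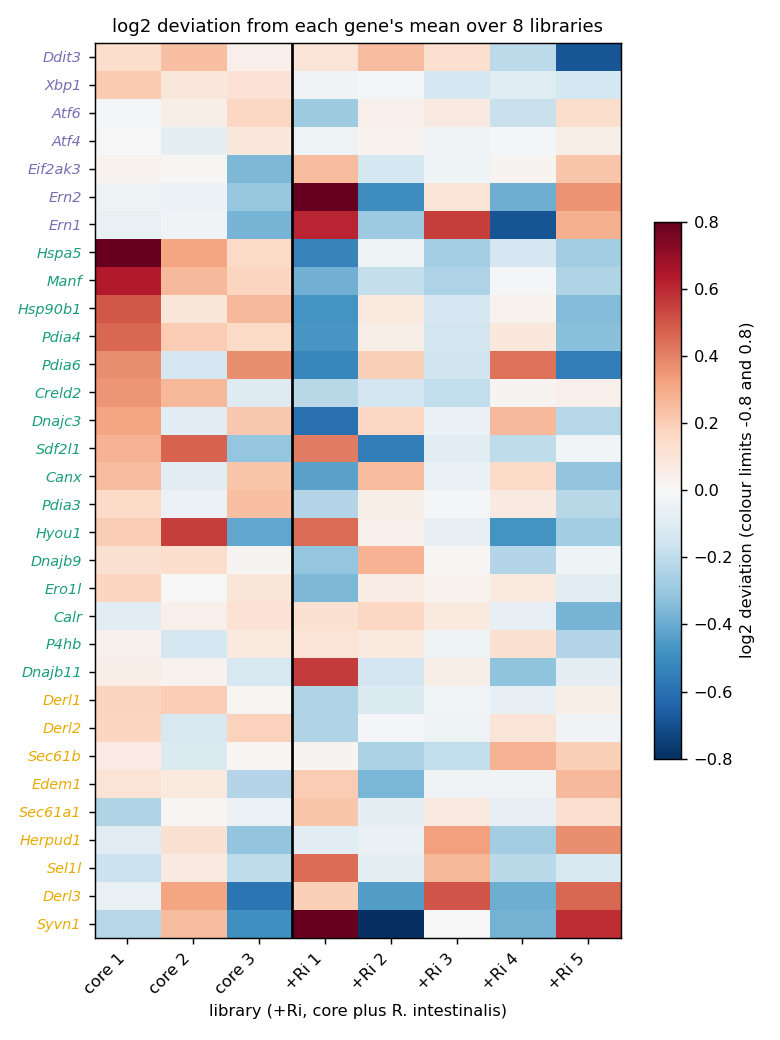
Log2 deviation of each member (rows, coloured by role: purple for sensors and transcription factors, green for chaperones, yellow for degradation and translocation) from its mean over the 8 libraries (columns; the line parts core from core plus R. intestinalis, shown as +Ri). Core replicate 1 holds the highest value of 8 of the 16 chaperones and R. intestinalis replicate 1 the lowest of 10.

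Libraries differed within groups as well as between them. Core replicate 1, the shallowest library, held the highest value of 8 of the 16 chaperones, and R. intestinalis replicate 1 held the lowest value of 10. The median log2 deviation of the chaperones was 0.27, 0.07 and 0.13 in core replicates 1 to 3. For R. intestinalis replicates 1 to 5 it was −0.33, 0.05, −0.06, 0.03 and −0.24. Replicates 2 and 4 with R. intestinalis thus stood near core replicate 2. Summed plasma cell markers (8625 and 3729) and summed fibroblast markers (9260 and 4796) were also highest in core replicate 1 and lowest in R. intestinalis replicate 1. Most of the plasma cell sum was Igj, and not all markers of that list shared the pattern, with Sdc1 lowest in core replicate 1 and Prdm1 highest in R. intestinalis replicate 1. The part of these cells in the chaperone values was not tested.

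The GC content of transcripts moved with these differences between libraries. Over all genes tested, the change in log2 deviation per 10 percentage points of GC was −0.30, 0.07 and −0.29 in core replicates 1 to 3. For R. intestinalis replicates 1 to 5 it was 0.56, −0.32, 0.04, 0.01 and 0.22. Transcript GC content of the members ran from 40.6% (Dnajb9) to 57.4% (Syvn1), with a median of 48.2% in the chaperones and 51.4% in the degradation genes. Across the 32 members, which share the same libraries, the log2 difference had a correlation with GC of r = 0.397, and across all genes with a GC value one of 0.458. Of the 16 members with the lower GC content 13 were below 0, and of the 16 with the higher 7.

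After GC correction the differences remained below 0 for Hspa5 (−0.57), Manf (−0.59), Hsp90b1 (−0.32), Pdia4 (−0.38) and Xbp1 (−0.32). Groups stayed apart in Hspa5, Manf, Hsp90b1 and Xbp1, overlapped in Pdia4 and came apart in Sdf2l1 (log2 difference −0.48). Of all genes tested 3.01% were apart and lower in that fit. The median of the chaperones was then −0.20. An unadjusted p below 0.05 was reached by 7 members, the former 4 with Xbp1, Sdf2l1 and Creld2, all lower, beside 4.62% of genes tested that were lower in that fit, and 0 passed the adjusted threshold. The 4 chaperones with a GC content under that of Hsp90b1 (Dnajb9, Ero1l, Canx and Dnajc3) lay between −0.09 and 0.03. The positive differences of Syvn1, Ern2 and Derl3 turned to −0.03, −0.06 and −0.10.

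**Figure D5:**
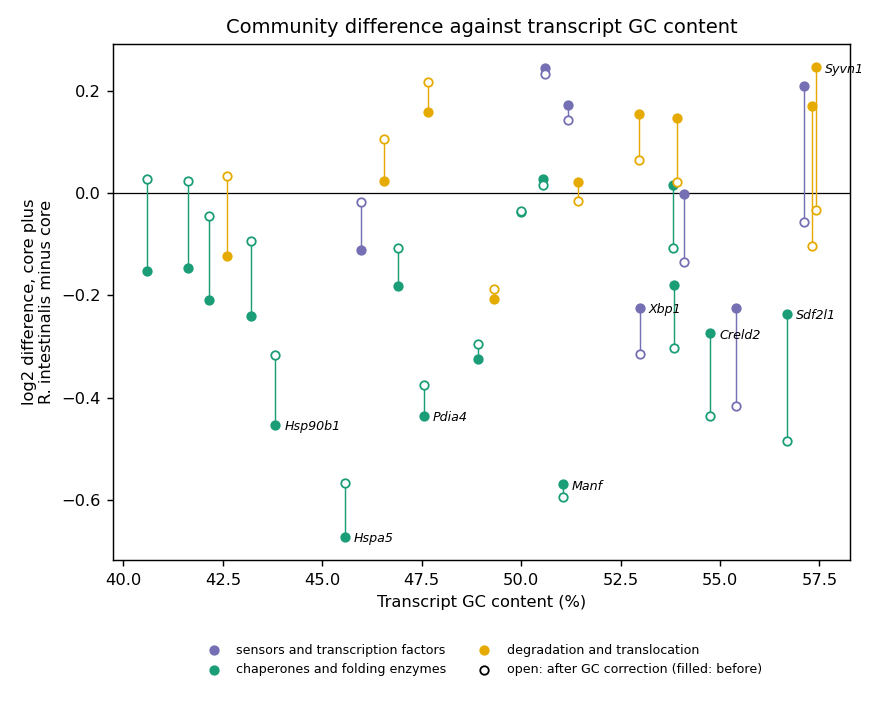
Log2 difference of each member, core plus R. intestinalis minus core, against the GC content of its transcript in percent, before (filled) and after (open) a correction of each library for GC content. Hspa5 and Manf lie lowest both times (−0.67 and −0.57 before, −0.57 and −0.59 after), while Syvn1, with the highest GC content, moves from 0.25 to −0.03.

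The promoter elements above can be set beside these values. All 7 chaperones with a perfect ERSE were below 0, with a median log2 difference of −0.27 and a range from −0.67 (Hspa5) to −0.04 (Calr). Of the 7 matched chaperones without it 5 were below 0, with a median of −0.15 and a range from −0.44 (Pdia4) to 0.03 (Dnajb11). The ranges overlap widely. The degradation genes with an ERSE, Syvn1 and Derl3, were both above 0, and Xbp1, lower in all libraries with R. intestinalis, had none of the searched elements in its window.

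In the authors' deposited table, 2 of the 32 members had a posterior probability of differential expression of at least 0.95, Xbp1 (1.00) and Manf (0.97), both lower. Of all its genes, 0.288% were called lower and 0.194% higher. The authors' deposited table gives Hspa5 a probability of 0.36, Pdia4 0.30 and Hsp90b1 0.07, although its raw fold change of 0.62 for Hspa5 is further from 1 than that of Xbp1 (0.86) or Manf (0.67). These probabilities come from the same values as the differences above.

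Over the 8 libraries, the genes whose log2 values followed those of Hspa5 most closely were Arhgap6 (Pearson r = 0.986), Tnpo3 (0.979), Eif4e (0.975), Manf (0.974) and Hsp90aa1 (0.973), out of 13019 genes. Manf was thus the fourth, Pdia4 ranked 42 (r = 0.94), Hsp90b1 85 (0.92), Xbp1 294 (0.86) and Creld2 491 (0.82). These were the only 5 members within the first 500 ranks. Of all members other than Hspa5, 18 were within the first 6509 of the 13019 ranks and the rest were below, such as Sel1l at 10262. Sec61a1, the translocation channel, stood near the other end with r = −0.865 (rank 12685), and Calr and P4hb followed Hspa5 in neither direction (r = −0.04 and −0.02). These ranks include the difference between the groups.

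In each of 8 lists of related genes 0 passed limma's adjusted threshold. The number at an unadjusted p below 0.05 ran from 0 to 4 per list, beside 3.69% of genes tested lower and 4.44% higher. Of 21 genes of the translocon and of signal peptide processing 18 were below 0, and 0 had groups apart. Their median log2 difference was −0.23, near that of the chaperones. After GC correction it was −0.155, beside −0.201 for the chaperones. The median GC content of these 21 genes was 45.4%, beside 49.9% over all genes tested. Ssr1, a subunit of the translocon-associated complex, had a core mean of 1308 ± 130.9 and a mean of 1121 ± 144 with R. intestinalis. Of 22 other folding enzymes 13 were below 0 (median −0.13, from −0.59 to 0.34, and −0.09 after GC correction). Among them, Ppib, a prolyl isomerase, was at 3595 ± 360 and 3133 ± 414, and Pdia5 at 516 ± 21.9 and 520 ± 64.2. Txndc5, a thioredoxin-like isomerase, was at 0.07 on the log2 scale. In N-glycosylation and the calnexin cycle 10 of 16 genes were below 0 (median −0.11, from −0.59 to 0.85, and −0.13 after GC correction). Groups were apart and higher in 1 of them, beside 2.53% of genes tested. Rpn1, an oligosaccharyltransferase subunit, was at −0.12 and Uggt1, the folding sensor of glycoproteins, at −0.16. COPII coat and cargo genes, which carry folded proteins out of the ER, had 12 of 16 below 0 (median −0.13, and −0.05 after GC correction). Sec23b was at −0.24 and the KDEL receptor Kdelr2 at 0.01.

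Genes downstream of PERK and ATF4 lay on both sides of 0. Of 25 tested targets of the integrated stress response 12 were below 0 and 13 above, with a median of 0.03. At an unadjusted limma p below 0.05, 2 were lower, beside 3.69% of genes tested. Groups were apart and lower in 1, beside 3.31% of genes tested. Asns, asparagine synthetase, averaged 468 ± 112 and 345.5 ± 52.1 with overlapping groups (log2 difference −0.42). Atf3 averaged 62.6 ± 12.2 and 74.9 ± 14.5, and Ppp1r15a, which encodes the phosphatase subunit GADD34, had a log2 difference of 0.35 (SE 0.34). Trib3 and Chac1, both induced by CHOP or ATF4, had means under the filter, with at most 5.36 in a group. Further degradation genes had 10 of 17 below 0 (median −0.02), with Vcp, the ATPase that pulls chains from the membrane, at −0.07. Genes that process the sensors or act beside them had 7 of 16 below 0 (median 0.13, from −0.89 to 1.10, and −0.05 after GC correction). At an unadjusted limma p below 0.05, 3 of them were higher and 1 lower, beside 4.44% and 3.69% of genes tested. Groups were apart and higher in 2, beside 2.53% of genes tested. The ATF6 protease Mbtps1 was at 0.21 and Atf6b at 0.45.

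Cytosolic heat shock genes, which serve folding outside the ER, had members on both sides of 0. Hspa8, the constitutive Hsp70, had means of 25760 ± 3143 and 18220 ± 3292, and Hsp90aa1 2759 ± 437 and 1934 ± 279.9. Groups were apart in both, with log2 differences of −0.51 each, beside 3.31% of genes tested that were apart and lower. Hspa1a, the stress-induced Hsp70, had a positive difference of 1.09 (SE 0.62) with overlapping groups, and of 0.76 after GC correction. Its values were low, from 4.57 in core replicate 3, an estimated 4 reads, to 66.9 in R. intestinalis replicate 4. Of the 12 genes of this list 7 were below 0, with a median of −0.16.

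Goblet cell and colonocyte markers were present in all libraries of this large intestine tissue. Goblet cell markers (10 of 10 symbols listed found) ranged in sum over 252300 to 381900 in core and 289300 to 413000 with R. intestinalis. Clca1 was given the GC content of Clca3 (46.43%), so its identity is uncertain, and it added at most 97.34 to a sum. Plasma cell markers (6 of 8 symbols) summed to 5247 to 8625 and 3729 to 6797, so both lists overlapped in sum. The absent symbols were Mzb1 and Jchain, another name of the joining chain found as Igj. Of the 6 plasma cell markers 3 were above and 3 below 0, from Tnfrsf17 (−0.76) and Igj, the antibody joining chain (−0.53), to Sdc1 (0.46). Only Sdc1 had an unadjusted limma p below 0.05, beside 4.44% of genes tested that were higher. Colonocyte markers (8 of 8) summed to 63040 to 124300 and to 104600 to 143500. Fibroblast markers (7 of 7) did not overlap in sum between groups, at 8090 to 9260 in core and 4796 to 7190 in the others. Of these, 7 of 7 were below 0 (median log2 difference −0.615). Smooth muscle markers (5 of 5) summed to 113600 to 159400 and to 76820 to 131400, with 5 of 5 below 0 (median −0.636). Adipocyte markers (5 of 5) summed to 1130 to 2746 and to 318 to 1490, with core replicate 1 highest. All 4 tested were below 0 (median −1.83). After GC correction these medians were −0.642, −0.623 and −1.78. In each of these lists, 3 markers had an unadjusted limma p below 0.05, all lower, beside 3.69% of genes tested. Groups were apart and lower in 3, 2 and 1 markers, beside 3.31% of genes tested. The part of these cells in the lower chaperone values was not tested. Paneth cell markers (4 of 5) summed to at most 369.5, and 5 exocrine pancreas markers to at most 4.25 in any library.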

How the data were processed

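Messenger RNA was measured in 8 libraries, 3 core and 5 core plus R. intestinalis, grouped by their titles. Bowtie2, RSEM 1.2.23 and genome build mm9 appear in the submitters' processing notes, with no role stated. For the annotation, gene filter and calling tool nothing is stated there. Per the file headers and the values, the deposited table holds a normalized expression signal per gene and library. It also holds the authors' posterior probability of differential expression and the authors' fold changes, each a ratio with core as denominator. Depth was estimated from the step that low values cluster on, which 80.0% to 84.5% of values under 30 met (tolerance 0.05 of a step), so whole reads were not assumed.

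Values were used as log2(value + 1). Genes with a mean of at least 10 (13020 of 17041) were fitted together with limma 3.58.1 in R 4.3.3 (with a trend in variance; differences are R. intestinalis libraries minus core), with Benjamini-Hochberg adjustment over all of them and a threshold of 0.05; the fit was tested on simulated data. The members, the 8 pathway lists and the 8 marker lists were chosen with earlier results of these data known. Values in every library are given for members with groups apart and for the 6 largest differences each way (mean of at least 50). Other pathway genes are named only where the lists marked them, also with earlier results known. Transcript GC content came from GENCODE M21, matched by symbol for 99.0% of genes tested and all 32 members. Promoter windows came from RefSeq. Alternatives were pseudocounts of 0.5 and 5, no filter or a stricter one (mean of 50), TMM rescaling, quantile normalization, each library left out, replicate blocks, no trend, library weights, and other thresholds on the posterior probability. A GC correction (lowess, span 0.3) and weights without 1 library were chosen after seeing the data. Same-numbered libraries of the groups did not deviate together (correlations of −0.115, −0.53 and −0.0699), so numbers were not taken to pair mice. So few correlations cannot exclude a pairing that the labels do not state.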

Additional observations from a re-analysis of the deposited data

How the results depend on the processing

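Over 20 alternatives, 17 of the 32 members kept the sign of their log2 difference in every one. Of these, 13 were lower (among them Hspa5, Manf, Hsp90b1, Pdia4 and Xbp1) and 4 higher (Eif2ak3, Herpud1, Sel1l and Sec61a1). All alternatives draw on the same 8 libraries, and the share of all genes that kept their sign is not given. Nothing particular to the members follows from these counts. The median of the chaperones stayed between −0.249 and −0.161, and that of the degradation genes between 0.0181 and 0.201. The count of members past the adjusted threshold was 0 except with library weights, which gave 4. The 4 members with an unadjusted p below 0.05 became 9 with library weights (29.4% of all genes, in either direction, against 8.13% in the main fit). Of these 9, Herpud1 (0.37) and Sel1l (0.32) were higher with R. intestinalis. The 4 became 7 with GC correction, all lower, beside 4.62% of all genes that were lower. With the replicate number as a block the 4 became 2, both lower, whether it was taken from the title or from the sample name. Of all genes, 0.929% were lower with the title number and 2.45% with the sample name number. The block gave 0 past the adjusted threshold, and the labels do not say whether the numbers pair the libraries. With each library left out, the count of members with an unadjusted p below 0.05, all lower, ran from 2 to 5. The share of all genes that were lower ran from 0.975% to 5.29%. It was 0.975% without core replicate 1 (2 members) and 5.29% without R. intestinalis replicate 2 (4 members). The count of members with groups apart, all lower, ran from 5 to 8, beside 3.79% to 11.8% of all genes apart and lower. The groups of Hsp90b1 overlapped after rescaling by a trimmed mean, which left 4 members apart, beside 2.69% of all genes apart and lower. Weighting after leaving out R. intestinalis replicate 3 put the median of the sensors at −0.129, and it ran from −0.0412 to 0.0388 with single libraries left out. In the authors' deposited table, Xbp1 (1.00) was also past a posterior probability of 0.99, and Manf (0.97) was not. At 0.90 no further member was called, the next highest being Hspa5 (0.36). The shares of all genes called at 0.90 and 0.99 are not given, so nothing about the members as a set follows from these thresholds. Causes of these shifts were not tested. Only 3 core libraries limit every comparison, and low read numbers limit weakly read members such as Derl3 and Ern1. Sample names of the core libraries do not start at the first number, and the labels do not say whether a core library was left out.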
